A study of Mus musculus with 16 samples.

Results

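The insulin-like growth factor (IGF) axis was examined in mouse osteosarcomas through 10 genes, taken by symbol from the table of raw counts per gene. They are the ligand *Igf1*, the receptors *Igf1r* and *Insr*, the receptor substrate *Irs1*, and the binding proteins *Igfbp2*, *Igfbp3*, *Igfbp4*, *Igfbp5*, *Igfbp6* and *Igfbp7*. All 10 were among the 25054 genes of the table, and all 10 passed the filter on low counts. The RNA came from 16 tumors of mice older than 6 months, of both sexes, that had been given tamoxifen at 1 month of age by intraperitoneal injection (400 μg per gram, from a solution of 20 mg/mL). Every mouse carried the OsxCreERT2+/- transgene with p53fl/fl and Rb1fl/fl, and the 8 tumors called KO below came from mice that also carried Arid1afl/fl. The Cre is driven by *Osterix*, a gene of the osteoblast lineage, and is active only after tamoxifen, so other cells of a tumor keep intact alleles. The 8 KO tumors came from 8 mice, and the 8 tumors called WT came from 4 mice by the animal codes. Mouse N42 gave 4 of them, N43 gave 2, and N215 and N25 gave 1 each. A site is labeled for the WT tumors only, and the N25 tumor is labeled lung.

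IGF1 is a growth factor that osteoblasts, macrophages and liver secrete and that bone stores in its matrix. It binds the receptor tyrosine kinase IGF1R, which with the insulin receptor passes the signal through IRS1 to PI3 kinase and AKT. The IGF-binding proteins hold IGFs outside the cell, prolong their life and limit or deliver them to the receptor, and proteases such as pappalysins cut the binding proteins and release the ligand. In bone this system controls the growth and matrix output of osteoblasts. In GRCm38 *Igf1* lies at chr10:87858265-87937042, *Igf1r* at chr7:67952827-68233668, *Insr* at chr8:3122061-3279617, *Irs1* at chr1:82233101-82291416 and *Igfbp6* at chr15:102144362-102149511, and all 10 genes are annotated as protein coding.

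The libraries were uneven in depth, with 1109487 to 15059640 counts on genes in KO and 7806160 to 16962329 in WT (log2 difference −1.48, two-sided exact permutation test, p = 0.00280). A total of 3 counts in a library equals 0.203 to 6.69 in KO and 0.146 to 0.340 in WT on the scale used below, counts scaled to the normalized library size (CPM). Counted over the whole gene, *Arid1a* had means of 187 ± 57.5 and 167 ± 31.8 CPM in KO and WT (SD, n = 8 each), and reads of the floxed exons cannot be separated from the others, so KO and WT stand for the labels. *Trp53* and *Rb1*, floxed in all mice, had log2 fold changes of 0.55 and 0.22 (edgeR adjusted p = 0.183 and 0.734). Genes of the osteoblast list summed to 446 to 42391 CPM in KO, with a median of 4630 CPM, and 1846 to 54808 CPM in WT, with a median of 37391 CPM. The N215 and N25 tumors, with 3156 and 1846 CPM, lay below the KO median, and the tumors of N42 and N43 had 16288 to 54808 CPM. RNA of other tissues varied between tumors: 8 lung genes summed to 11340 CPM in the KO tumor Massa and 28695 CPM in the N25 tumor (WT median 20.8), 8 salivary gland genes to 114558 CPM in Prince, and 8 liver genes to 1341 CPM in Zelda. The salivary gland genes summed to 10.4 to 518 CPM in the other KO tumors and 5.20 to 29.4 CPM in WT. The sum of 10 skeletal muscle genes was 77149 CPM in Montana and 135053 CPM in Oregon, with a KO median of 127 CPM, and 8.97 to 7116 CPM in WT, with a median of 1343 CPM. Their part in the results below was not tested, except where a value without those tumors is given.

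The study compared the genotypes to find how transcription differs when *Arid1a* is floxed. The log2 fold change, KO minus WT, was below 0 for all 10 genes of the axis, while 44.1% of the 15413 genes tested were below 0. The median over the 10 was −0.75, against 0.10 over all genes tested. The direction of *Igfbp6*, *Insr* and *Igfbp2* turned under some of the alternatives run, and from 7 to 10 of the genes were below 0 across them. In edgeR's quasi-likelihood test, with p-values adjusted over all genes, 1 of the 10, *Igfbp3*, was past the threshold of 0.05, while 2.15% of all genes tested were past it in the same direction and 4.01% in either (1.86% higher in KO). Without adjustment 4 of the 10, *Igfbp3*, *Igfbp4*, *Igf1r* and *Igfbp7*, had a p-value under 0.05, all lower in KO. Over all genes tested the share was 9.75% in that direction and 23.0% in either. The KO and WT values overlapped for each of the 10, and 0.415% of all genes did not overlap. These are bulk tumors, in which fewer cells of a type and less RNA per cell cannot be told apart.

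**Figure D1:**
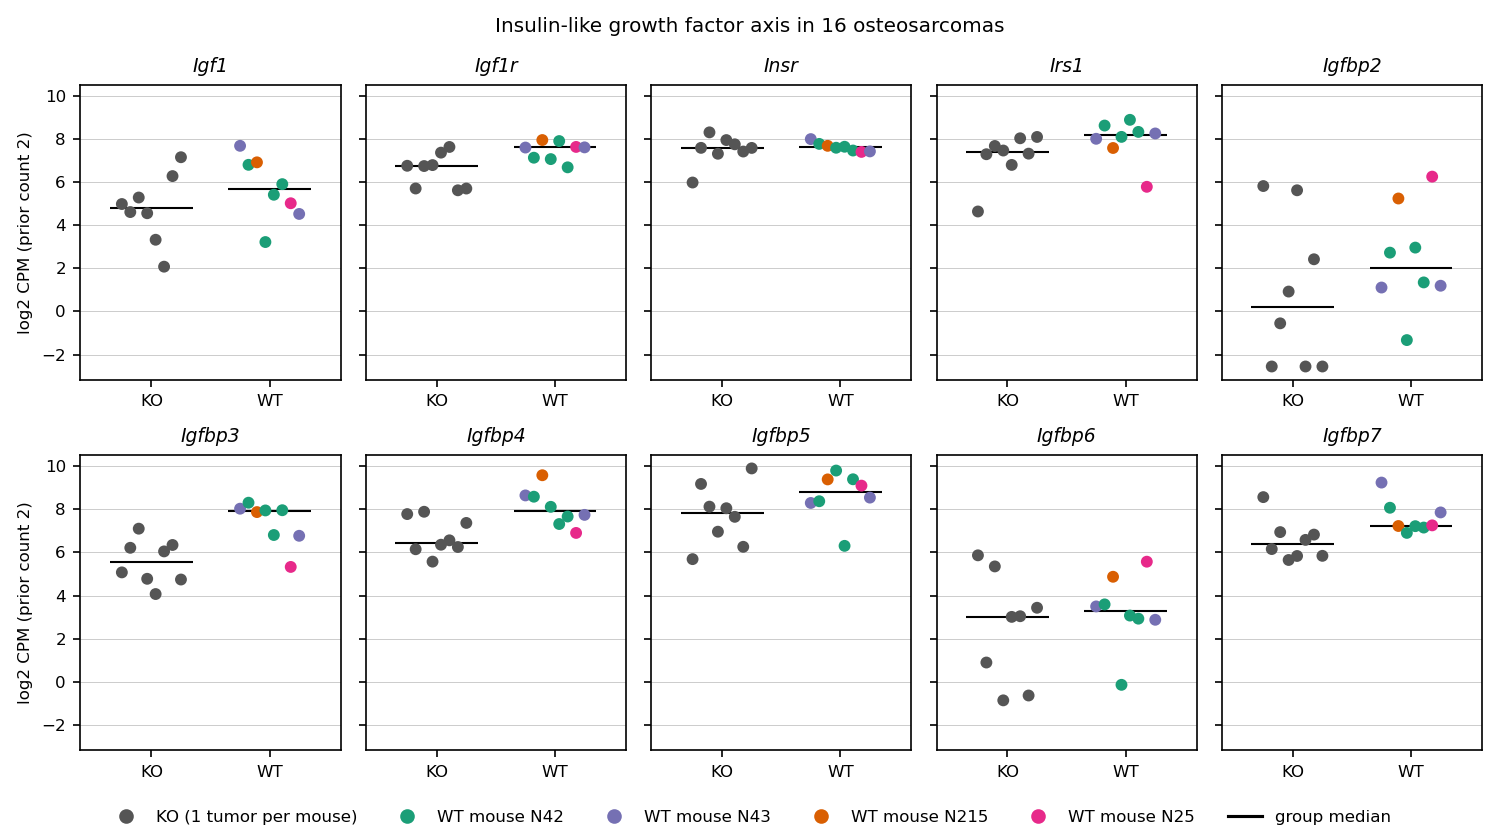
Expression of the 10 genes in 16 osteosarcomas, as log2 CPM with a prior count of 2 on the vertical axis and genotype on the horizontal axis. Each point is 1 tumor, WT points are colored by mouse and horizontal lines are group medians. The *Igfbp3* points of the 8 KO tumors lie below the WT median, the *Insr* points of WT lie close together, and *Igfbp2* and *Igfbp6* spread widely in both groups.

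The ligand *Igf1* varied more within each genotype than between them. In KO its lowest value was 4.03 CPM in Grilka, its median 27.7 CPM and its highest 141 CPM in Oregon. In WT its lowest value was 9.09 CPM in the right femur tumor of N42, its median 50.7 CPM and its highest 203 CPM in the spine tumor of N43. The ranges overlapped over most of their length, and the Grilka value rests on 3 counts. Its log2 fold change was −0.77 (SE 0.65, edgeR adjusted p = 0.510), and over 28 alternatives it ranged from −1.69 to −0.02 without passing the threshold. Oregon, the KO tumor with the most *Igf1*, also had the most skeletal muscle RNA, and without Oregon the log2 fold change was −1.32. Per kilobase of exon, *Igf1* had 14.2 CPM in Oregon and 3.89 CPM in Montana, where muscle genes summed to 77149 CPM. It had 7.76 CPM per kilobase in Zelda, where they summed to 2.85 CPM. In Zelda liver genes summed to 1341 CPM and macrophage genes to 516 CPM, the most of KO for both. In Oregon these sums were 1.68 and 199 CPM. The part of muscle, liver or macrophage RNA in *Igf1* was not tested.

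The other ligand gene in the table, *Igf2*, which encodes the fetal growth factor of the family and is no member of the 10, was carried by 1 tumor. The hind limb tumor of N215 had 2997 CPM, while the other 7 WT tumors had between 0.966 and 13.5 CPM and the KO tumors between 0.136 and 47.0 CPM. The median was 23.0 CPM in KO and 7.47 CPM in WT. The log2 fold change of −4.19 (SE 1.70, edgeR adjusted p = 0.152) became 1.76 without the N215 tumor, with an adjusted p of 0.230. Its exons share 3596 bases with *Gm49394* on the same strand, so reads of the 2 genes cannot be fully separated.

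The receptors differed from each other in how they varied. *Igf1r* ran from 48.6 CPM in Zelda through a median of 107 CPM to 196 CPM in Grilka among KO tumors, and from 102 CPM in the left shoulder tumor of N42 through a median of 193 CPM to 245 CPM in the N215 tumor among WT. The KO tumors Zelda, Oregon and Medusa lay below every WT tumor, 3 WT tumors lay above every KO tumor, and 7 of 8 KO tumors lay below the WT median. For *Igf1r* the log2 fold change was −0.79 (SE 0.31, edgeR adjusted p = 0.147), which did not pass the threshold. *Insr*, which encodes the insulin receptor and forms hybrids with IGF1R, ran from 167 CPM in the N25 tumor to 252 CPM in the N43 spine tumor among WT, with a median of 194 CPM. In KO its lowest value was 62.5 CPM in Massa, its median 190.3 CPM and its highest 313 CPM in Montana. The *Insr* values of WT lay close together, while 2 KO tumors lay below every WT tumor and 1, Montana, above them all. The log2 fold change of *Insr* was −0.03 (SE 0.25, edgeR adjusted p = 0.967), of no fixed sign across the alternatives, which ranged from −0.22 to 0.10.

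The ratio of *Igf1r* to *Insr* counts within a library does not depend on its depth. It was 0.271 in Medusa and in Oregon, the lowest KO tumors, 0.503 at the KO median and 1.71 in Massa, the highest. In WT it was 0.583 in the left shoulder tumor of N42, 0.950 at the median and 1.20 in the N215 tumor. The KO tumors Medusa, Oregon, Zelda and Montana had ratios below all WT tumors, and the Massa ratio rests on 48 and 28 counts. The ratio was not tested.

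*Irs1*, the adaptor that both receptors phosphorylate, had 24.5 CPM in Massa, a median of 166 CPM and 270.4 CPM in Oregon among KO tumors. Among WT tumors it had 54.4 CPM in the N25 tumor, a median of 287 CPM and 469 CPM in the left limb tumor of N42. All 8 KO tumors lay below the WT median and 5 WT tumors lay above every KO tumor. The lowest tumor of each genotype was the one with lung RNA. For *Irs1* the log2 fold change was −0.73 (SE 0.42, edgeR adjusted p = 0.302), and without Massa and the N25 tumor, a choice made after seeing the data, the adjusted p was 0.0954. Exons of *Irs1* share 2822 bases with *Gm9747* on the opposite strand, and whether the counting used strand is not given in the sources used here.

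*Igfbp3*, the main carrier of IGFs in blood and also made by bone cells, was lower in KO. Its values were 16.6 CPM in Prince, 26.6 in Oregon, 27.2 in Ohio, 33.5 in Massa, 65.8 in Grilka, 73.9 in Medusa, 80.9 in Zelda and 137 in Montana. In WT they were 39.9 CPM in the N25 tumor, 109 in the N43 pelvis, 112 in the N42 left limb, 233 in the N215 hind limb, 246 in the N42 right femur, 247 in the N42 left shoulder, 260 in the N43 spine and 315 in the N42 right pelvis. All 8 KO tumors lay below the WT median of 239 CPM, 5 WT tumors lay above every KO tumor, and 4 KO tumors lay below every WT tumor. The means of KO and WT were 57.6 ± 40.2 and 195 ± 95.5 CPM (SD, n = 8 each). The log2 fold change was −1.76 (SE 0.46, edgeR adjusted p = 0.0416). The call was lost in fits that took account of the mouse or left out N42. The fits per mouse and without N42 also hold fewer WT samples. The effects of shared mice and of the smaller group were not separated. With counts summed per mouse, 8 KO against 4 WT mice, the log2 fold change was −1.51 (edgeR adjusted p = 0.532), with the mouse as a random effect in limma it was −1.62 (adjusted p = 0.505), and without the tumors of N42 it was −1.44 (edgeR adjusted p = 0.577). Per WT mouse, *Igfbp3* averaged 230 CPM over the tumors of N42, 184 CPM over those of N43, 233 CPM in N215 and 39.9 CPM in N25. The direction was the same in all 28 alternatives, from −2.08 to −1.42, and 9 of them were past the threshold. Leaving out 1 tumor at a time lost the call for 13 of the 16 tumors, with adjusted p-values up to 0.0893 without the right pelvis tumor of N42.

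**Figure D2:**
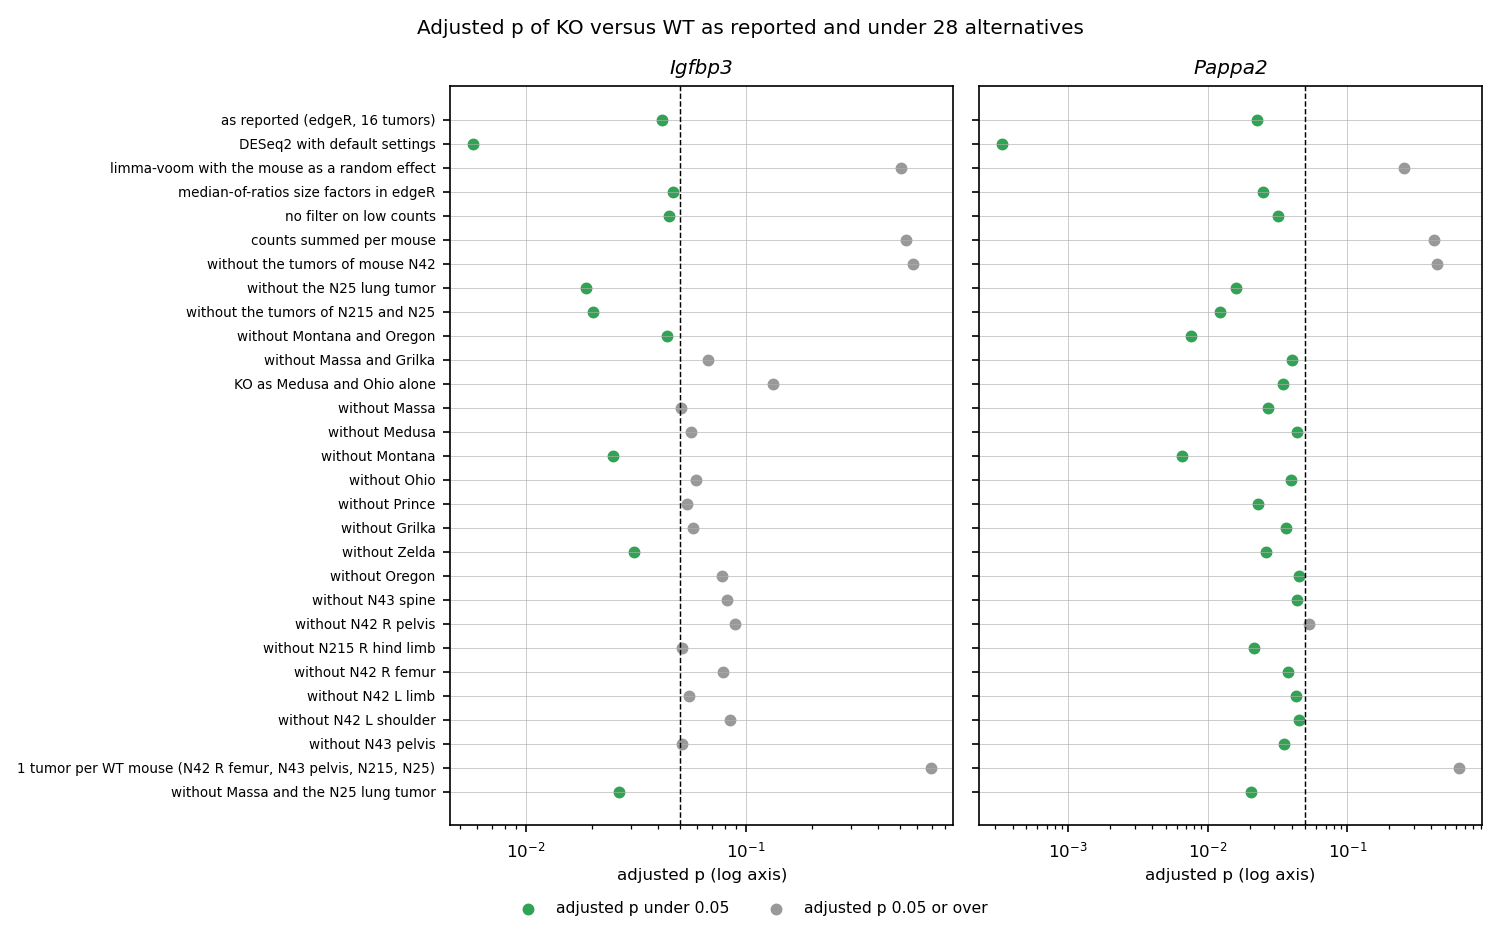
Adjusted p-value of *Igfbp3* (left) and *Pappa2* (right), KO against WT, as reported and under 28 alternatives, on a log axis. Each point is 1 fit, and the dashed line marks 0.05. *Igfbp3* is under the line as reported with 0.0416 and in 9 of 28 alternatives, and *Pappa2* with 0.0225 and in 23 of 28. Both are far over the line when mice rather than tumors are compared.

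*Igfbp4*, whose protein mostly inhibits IGF action and is the main substrate of the protease PAPP-A, had 47.3 CPM in Ohio, a median of 87.8 CPM and 235 CPM in Montana among KO tumors. In WT it had 119 CPM in the N25 tumor, a median of 245 CPM and 761 CPM in the N215 tumor. All 8 KO tumors lay below the WT median and 5 lay below every WT tumor. For *Igfbp4* the log2 fold change was −1.35 (SE 0.42, edgeR adjusted p = 0.0723), which missed the threshold, and in 4 of 28 alternatives it passed, DESeq2 among them (adjusted p = 0.0281). *Igfbp7*, a distant relative that binds IGFs weakly and is found in vessel walls, had 49.9 CPM in Ohio, a median of 83.1 CPM and 377 CPM in Massa among KO tumors. In WT it had 119 CPM in the right femur tumor of N42, a median of 151 CPM and 601 CPM in the N43 spine tumor. Of the KO tumors, 6 lay below every WT tumor and Massa, with lung RNA, lay above 7 of the WT tumors. The log2 fold change of *Igfbp7* was −0.96 (SE 0.45, edgeR adjusted p = 0.217), and without Massa it was −1.49 (adjusted p = 0.0280). *Igfbp7* passed the threshold in 3 of 28 alternatives. It did not pass with the mouse as a random effect in limma (adjusted p = 0.523) or with 1 tumor per WT mouse (edgeR adjusted p = 0.868). Exons of *Igfbp7* share 85 bases with *Polr2b* on the opposite strand.

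Marker genes of other cell types were read in the same tumors. Of 10 macrophage genes, all 10 were lower in KO and 9 were past the threshold, with sums of 132 to 516 CPM in KO and 317 to 1829 CPM in WT. The N215 and N25 tumors, with 479 and 317 CPM, lay within the KO range, and the tumors of N42 and N43 had 1124 to 1829 CPM. Of 8 fibroblast and pericyte genes, 7 were lower in KO and 2 were past the threshold. Their sums were 401 to 2763 CPM in KO and 1458 to 22415 CPM in WT. As with *Igfbp3*, these calls were lost in fits that took account of the mouse or left out N42. In edgeR 0 genes of either list were past the threshold with counts summed per mouse, without N42 or with 1 tumor per WT mouse. The same held with the mouse as a random effect in limma, while all 10 macrophage genes stayed below 0 in these fits. Of 8 endothelial genes, all 8 were lower and 0 were past the threshold in edgeR or at an unadjusted p-value under 0.05. Their sums were 156 to 786 CPM in KO and 229 to 1947 CPM in WT. Without the N25 tumor, which had the sum of 1947 CPM, 3 of the 8 were lower, and without the N215 tumor all 8 were. Of 10 osteoblast genes, 8 were lower and 0 were past it in edgeR. Before adjustment 4 of these 10 had p-values below 0.05 in edgeR, against 23.0% of all genes tested. No gene of these lists was at 0 in all tumors of a genotype. Their part in the *Igfbp3*, *Igfbp4* and *Igfbp7* values was not tested.

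The 3 genes lie in GRCm38 at chr11:7206086-7213923 on the minus strand (*Igfbp3*), chr11:99041244-99054392 on the plus strand (*Igfbp4*) and chr5:77349240-77408041 on the minus strand (*Igfbp7*). Across the 16 tumors their levels were ordered alike, with Spearman's rho of 0.72 for *Igfbp4* and *Igfbp7*, 0.70 for *Igfbp3* and *Igfbp4* and 0.59 for *Igfbp3* and *Igfbp7*, values in which the genotypes, mice and library depths are shared. The 250 bases before the RefSeq start of each (GRCm38.p6, 5′ to 3′ on the gene's strand) are given because these are the binding proteins with the 3 lowest fold changes, with each CG in capitals.
*Igfbp3* (chr11:7213924-7214173): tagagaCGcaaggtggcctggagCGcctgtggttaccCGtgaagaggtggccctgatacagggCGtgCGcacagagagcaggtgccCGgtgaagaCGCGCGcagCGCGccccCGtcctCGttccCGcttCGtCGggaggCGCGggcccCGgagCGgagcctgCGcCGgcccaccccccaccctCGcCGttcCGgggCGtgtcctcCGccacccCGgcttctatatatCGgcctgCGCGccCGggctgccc
*Igfbp4* (chr11:99040994-99041243): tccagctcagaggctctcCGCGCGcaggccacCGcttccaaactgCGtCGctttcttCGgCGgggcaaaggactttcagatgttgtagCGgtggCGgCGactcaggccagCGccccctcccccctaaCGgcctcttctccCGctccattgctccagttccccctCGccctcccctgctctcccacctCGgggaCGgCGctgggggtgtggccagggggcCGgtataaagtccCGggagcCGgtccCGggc
*Igfbp7* (chr5:77408046-77408295): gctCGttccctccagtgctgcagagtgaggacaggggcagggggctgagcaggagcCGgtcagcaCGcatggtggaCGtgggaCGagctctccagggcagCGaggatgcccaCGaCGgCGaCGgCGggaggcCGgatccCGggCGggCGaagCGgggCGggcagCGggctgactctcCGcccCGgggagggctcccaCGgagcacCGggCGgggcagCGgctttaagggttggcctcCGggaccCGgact
The *Igfbp3* window held 32 CG with 73.2% G and C, that of *Igfbp4* 22 with 69.2%, and that of *Igfbp7* 26 with 74%. Over the 32851 promoter windows in the table the medians were 6 and 52.4%. The letters TATAAA, searched on both strands, were found once in the *Igfbp4* window and in neither of the others, and 12.4% of all windows held them. GGGCGG, the core letters of a GC box, was found 4 times in the *Igfbp7* window and in 32.7% of all windows. CACGTG, an E-box, was in none of the 3 windows and in 6.02% of all. RefSeq windows were matched for 9 of the 10 genes, all but *Insr*.

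*Igfbp5*, the most abundant binding protein of bone matrix, did not differ between genotypes beyond the spread. Its KO values ran from 51.3 CPM in Massa through a median of 232 CPM to 947 CPM in Oregon. Its WT values ran from 78.7 CPM in the left limb tumor of N42 through a median of 458 CPM to 885 CPM in the right femur tumor of the same mouse. The extremes of WT thus came from 1 animal. Between genotypes the log2 fold change was −0.61 (SE 0.56, edgeR adjusted p = 0.543), and without Oregon it was −1.11.

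*Igfbp2*, which is abundant in liver and fetal tissue, and *Igfbp6*, which prefers IGF2 as its ligand, had low levels with single high tumors. *Igfbp2* was at 0 counts in the KO tumors Medusa, Grilka and Oregon, which allows up to 0.634, 4.03 and 0.839 CPM, and had a KO median of 1.11 CPM. Its highest KO values were 48.6 CPM in Prince and 55.8 CPM in Massa, tumors with salivary gland and lung RNA. In WT it had 0.227 CPM in the right femur tumor of N42, a median of 4.39 CPM, 37.3 CPM in the N215 tumor and 75.5 CPM in the N25 tumor, which is labeled lung. *Igfbp6* had 0.382 CPM in Ohio, a median of 7.97 CPM and 58.0 CPM in Massa among KO tumors, and 0.738 CPM in the right femur tumor of N42, a median of 9.67 CPM and 47.2 CPM in the N25 tumor among WT. For both genes the highest tumor of each genotype was the one with lung RNA. Per kilobase of exon *Igfbp6* had 52.2 CPM in Massa and 36.5 CPM in Montana, where lung genes summed to 2.81 CPM. The log2 fold changes were −0.35 for *Igfbp2* (SE 1.26, edgeR adjusted p = 0.902) and −0.04 for *Igfbp6* (SE 0.90, edgeR adjusted p = 0.984). Without Massa and the N25 tumor *Igfbp2* was at 0.03 (edgeR adjusted p = 0.993).

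*Igfbp2* and *Igfbp5* are neighbors on chromosome 1, facing each other with 5457 bases between them (chr1:72824503-72852474 and chr1:72857932-72874884). In the right femur tumor of N42 *Igfbp5* was at its WT maximum while *Igfbp2* was at its WT minimum, and in Oregon *Igfbp5* was at its KO maximum while *Igfbp2* was at 0 counts. In the N215 and N25 tumors, the highest of WT for *Igfbp2*, *Igfbp5* had 666 and 545 CPM, above its WT median. Over the 16 tumors Spearman's rho of the pair was −0.30. *Igfbp3* lies 3539 bases from *Igfbp1* on chromosome 11, and *Igfbp1* had too few counts to be tested: it reached 4.20 CPM in Zelda, the tumor with liver RNA, and at most 0.340 CPM in WT.

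Between genes, levels were compared as CPM per kilobase of exon. In WT the median was 124 for *Igfbp7*, 76.5 for *Igfbp3*, 76.3 for *Igfbp5*, 55.4 for *Igfbp4*, 31.4 for *Irs1*, 14.1 for *Insr*, 11.5 for *Igf1r*, 8.69 for *Igfbp6*, 5.12 for *Igf1* and 2.38 for *Igfbp2*. The ranges of any pair of neighbors in this order overlapped. In KO the median CPM per kilobase was 68.8 for *Igfbp7*, 38.6 for *Igfbp5*, 19.9 for *Igfbp4*, 18.2 for *Irs1*, 15.9 for *Igfbp3*, 13.8 for *Insr*, 7.17 for *Igfbp6*, 6.35 for *Igf1r*, 2.79 for *Igf1* and 0.603 for *Igfbp2*. *Igfbp3* thus stood below *Igfbp7* alone among WT medians and below *Igfbp7*, *Igfbp5*, *Igfbp4* and *Irs1* among KO medians, with overlapping ranges of neighbors there too.

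The 6 binding proteins together summed to 82.6 to 463 CPM per kilobase in KO, with a median of 179, and to 219 to 734 in WT, with a median of 375. *Igfbp7* held the largest share in 6 of 8 KO and 6 of 8 WT tumors. *Igfbp5* held it in Medusa and Oregon, where it took up to 60.6% of the sum, and in the right femur tumor of N42. *Igfbp4* held it in the N215 tumor, with 32.7%. The share of *Igfbp3* was 2.31% to 17% in KO, with a median of 11.3%, and 3.75% to 21.9% in WT, with a median of 15.2%. *Igfbp2* took 17.8% in Prince and 12% in the N25 tumor, against medians of 0.612% in KO and 0.540% in WT.

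**Figure D3:**
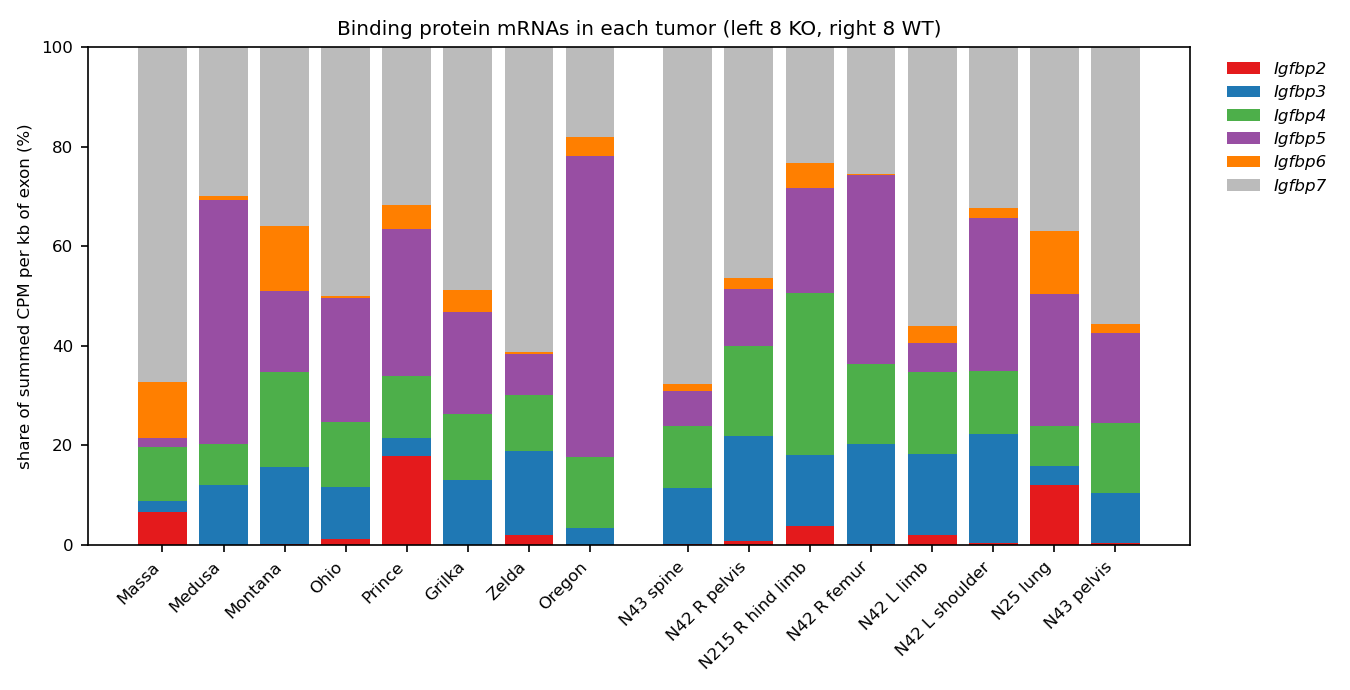
Share of each of 6 binding proteins in their summed CPM per kilobase of exon, in percent on the vertical axis, for each of the 8 KO tumors (left) and 8 WT tumors (right). Each bar is 1 tumor. *Igfbp7* is the largest part of 12 bars, while *Igfbp5* is the largest part in Oregon, Medusa and the right femur tumor of N42, and *Igfbp2* takes its largest shares, 17.8% and 12%, in Prince and the N25 tumor.

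A list of 51 genes of the pathway was read beside the 10. Of these, 48 were in the table and 44 were tested, the 10 included, and *Ins1*, *Ins2* and *Irs4* were not analysed here. The fold change was below 0 for 31 and above 0 for 13, with a median of −0.31. In edgeR 2 were past the threshold, *Igfbp3* and *Pappa2*, both lower in KO, and 0 were past it in the other direction, where DESeq2 called 2. Without adjustment 16 of the 44 had a p-value under 0.05, against 23.0% of all genes tested.

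**Figure D4:**
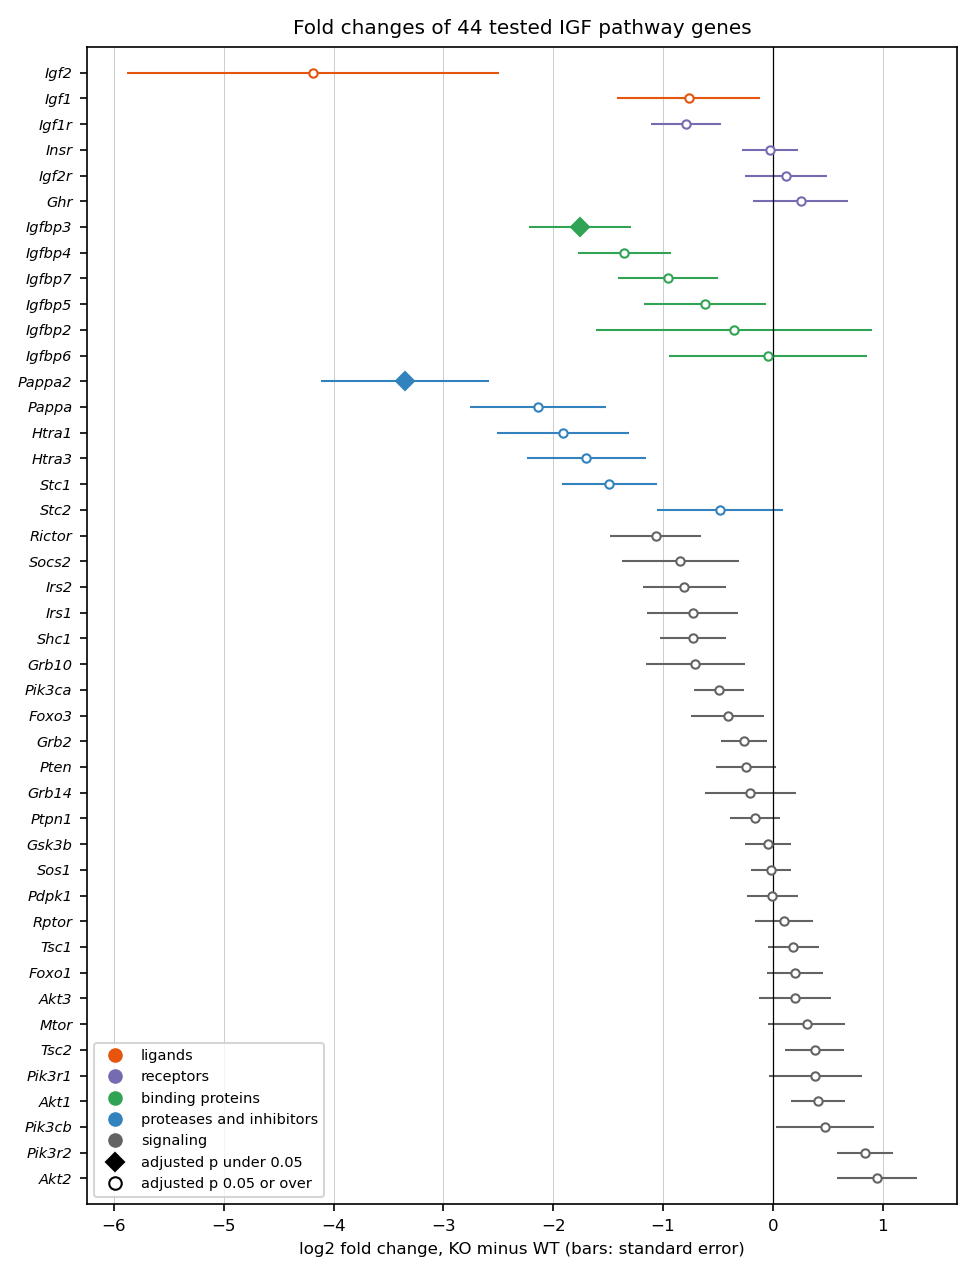
Log2 fold change, KO minus WT, of the 44 tested pathway genes, ordered by role and colored by it, with the standard error as bars. Filled diamonds mark adjusted p under 0.05 and open circles the rest. *Pappa2* at −3.35 and *Igfbp3* at −1.76 are the filled points, and all 6 proteases and inhibitors lie below 0.

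The 6 genes whose proteins cut the binding proteins or block the cutters were all below 0, with a median of −1.80. Their sums were 328 to 662 CPM in the tumors of N42 and N43 and 47.6 to 194 CPM in KO. The N215 and N25 tumors, with 86.3 and 73.2 CPM, lay within the KO range. *Pappa2*, a pappalysin that cuts IGFBP3 and IGFBP5, was at 0 counts in Massa, Prince and Grilka, at a KO median of 0.265 CPM and at 3.06 CPM in Montana. In WT it had 1.36 CPM in the N25 tumor, a median of 6.00 CPM and 15.5 CPM in the right pelvis tumor of N42. Of the KO tumors 7 lay below every WT tumor, but 0 counts allow 6.69 CPM in Massa and 4.03 CPM in Grilka, above the lowest WT value. The log2 fold change was −3.35 (SE 0.76, edgeR adjusted p = 0.0225). With counts summed per mouse it was −2.96 (edgeR adjusted p = 0.414), without the tumors of N42 −2.84 (edgeR adjusted p = 0.435), and with the mouse as a random effect in limma −3.27 (adjusted p = 0.254). Of the 28 alternatives 23 were past the threshold.

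*Htra3*, a serine protease, had a KO median of 26.6 CPM, from 12.8 CPM in Zelda to 140.3 CPM in Montana, and a WT median of 127 CPM, from 21.3 CPM in the N25 tumor to 295 CPM in the N43 spine tumor. Its log2 fold change was −1.70 (SE 0.54, edgeR adjusted p = 0.0780). The 3 others nearest the threshold, chosen after their values were seen, were *Stc1* (log2 fold change −1.49, edgeR adjusted p = 0.0575), *Pappa* (−2.14, 0.0591) and *Htra1* (−1.91, 0.0749). *Pappa*, which cuts IGFBP4, had 64.6 to 140.3 CPM in the 6 tumors of N42 and N43, 14.1 CPM in the N25 tumor and 3.18 CPM in the N215 tumor, against 4.34 to 48.5 CPM in KO. The N215 and N25 tumors lay within the KO range or below it. Past the receptor, 26 signaling genes were tested. In edgeR before adjustment 6 of the 26 had p-values below 0.05, against 23.0% of all genes tested. Of the 26, 11 were above 0 and 15 below, with a median of −0.03 and 0 past the threshold in edgeR. *Pik3r2*, a regulatory subunit of PI3 kinase, also chosen after its values were seen, came nearest, with a log2 fold change of 0.84 (SE 0.25, edgeR adjusted p = 0.0633), 7 of 8 KO tumors above every WT tumor and Zelda below them all.

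The site of the tumor was compared within WT, between 3 tumors of spine or pelvis and 4 of limb or shoulder, with the N25 tumor left out. Of 17131 genes tested, 0 (0% called) were past the threshold in edgeR and 641 (3.74%) were at an unadjusted p-value under 0.05. DESeq2 called 31 genes, none of them in the pathway list. *Igfbp7* was the only one of the 10 at an unadjusted p-value under 0.05. It had 601 CPM in the N43 spine, 268 CPM in the N42 right pelvis and 230.5 CPM in the N43 pelvis tumor, and 119 to 149 CPM in the 4 limb and shoulder tumors, so the sites did not overlap, as was so for 4.89% of all genes tested. The means were 367 ± 204 CPM (SD, n = 3) and 140 ± 13.8 CPM (SD, n = 4), and the log2 difference between them was 1.41 with SE 0.36. In edgeR across all genes its p-value was 0.00457 and its adjusted p 0.974. Without the N43 spine tumor the difference was 0.85. With the mouse as a block it was 0.98, and the unadjusted p-value of edgeR was 0.0978. Of the 3 spine or pelvis tumors 2 came from N43, which has no limb tumor here, so mouse and site cannot be fully told apart.

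**Figure D5:**
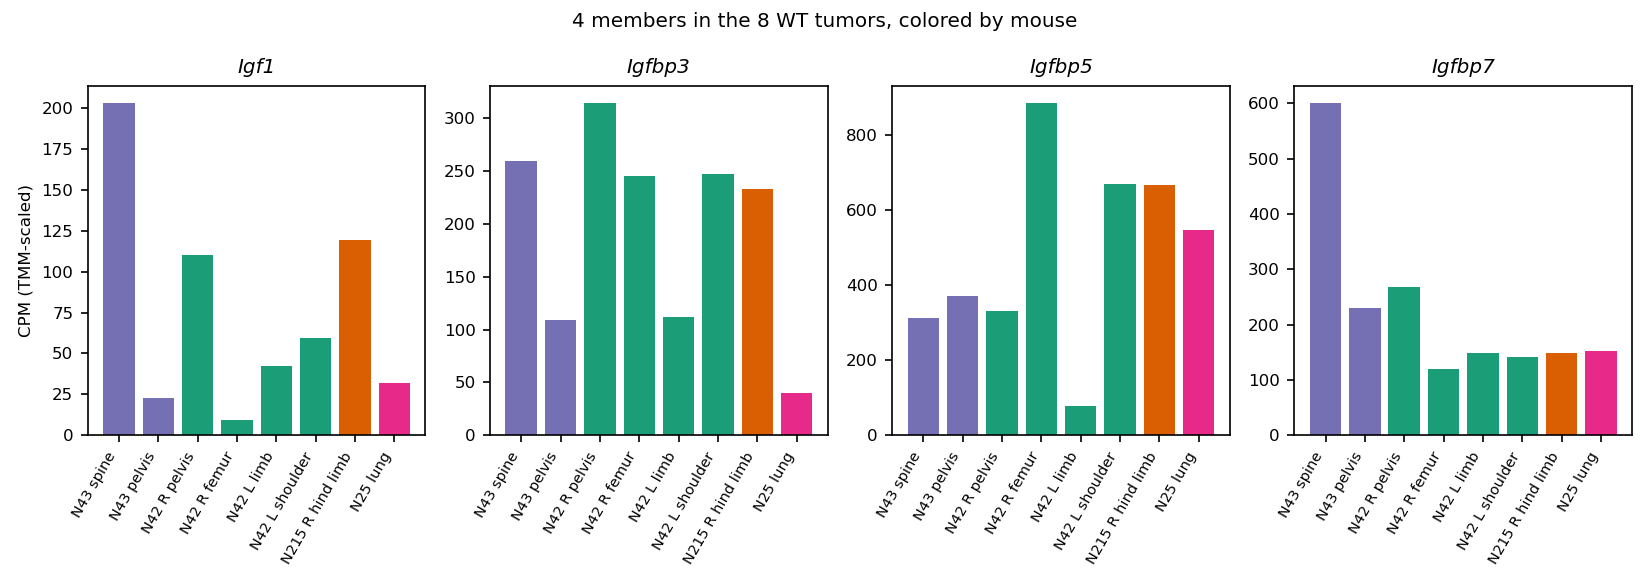
CPM of *Igf1*, *Igfbp3*, *Igfbp5* and *Igfbp7* in each of the 8 WT tumors, 1 bar per tumor, colored by mouse, with each panel on its own scale. The N42 tumors (green) run from 9.09 to 110.4 CPM for *Igf1* and from 78.7 to 885 CPM for *Igfbp5*, and *Igfbp7* is highest in the N43 spine, N42 right pelvis and N43 pelvis tumors.

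Tumors of the same mouse differed widely for some of these genes. Across the 4 tumors of N42 the range of log2 CPM was 4.28 for *Igfbp2*, 3.73 for *Igfbp6*, 3.58 for *Igf1* and 3.49 for *Igfbp5*, against a median range of 0.68 over all genes tested. It was 1.50 for *Igfbp3*, 1.27 for *Igfbp4*, 1.22 for *Igf1r* and 1.16 for *Igfbp7*. It was 0.79 for *Irs1* and 0.31 for *Insr*. *Insr* alone among the 10 had a range under the median of all genes. Over all 8 tumors of a genotype the SD of log2 CPM was 0.20 in WT and 0.68 in KO for *Insr*, and 1.01 in WT and 1.03 in KO for *Igfbp3*, where the median over all genes was 0.51 in WT and 1.11 in KO.

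The genes whose levels were ordered most like those of *Igfbp3* over the 16 tumors, among 15413, were *Axin2*, a feedback inhibitor of Wnt signaling (Spearman's rho 0.94), *Dsel*, related to an enzyme of dermatan sulfate synthesis (0.89), and *Lrp1*, an endocytic receptor (0.89). Like *Igfbp3*, all 3 were lower in KO in edgeR, with adjusted p-values of 0.0408, 0.0460 and 0.00945. These calls too were lost when mice were compared, with edgeR adjusted p-values of 0.598, 0.568 and 0.334 with counts summed per mouse and 0.660, 0.525 and 0.330 without the tumors of N42. The 3 genes were picked for their order over the same tumors, with the difference between genotypes left in. Their calls and the loss of these calls are therefore no result apart from that of *Igfbp3*. For *Igf1* the genes ordered most alike were *Gem*, a small GTPase (0.89), *Lnpk*, a protein of the endoplasmic reticulum (0.84), and *Lta4h*, an enzyme of leukotriene synthesis (0.83). Their log2 fold changes of −0.44, 0.06 and −0.04 did not pass the threshold. These likenesses describe 16 libraries of 12 mice and carry no test.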

How the data were processed

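Ribosomal RNA was depleted from total RNA and the libraries were sequenced from one end. The authors aligned the reads to mm10 with Novoalign 2.08.01, allowing several positions per read, and deposited raw counts per gene, which are the values used here (their tools also list DESeq2 1.26.0). Whether the counting used strand is not given in the sources used here. Within a group the closest pair of libraries differed by a chi-square of 40.1 per degree of freedom, so none was taken as a duplicate.

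Counts were tested with edgeR 4.0.16 in R 4.3.3 (TMM scaling, filterByExpr with minimum count 10 and minimum total 15, quasi-likelihood test, two-sided), adjusted by the Benjamini-Hochberg method over all genes tested, threshold 0.05. The biological coefficient of variation was 70.4%. CPM use TMM-scaled library sizes, and 3 counts served as the floor, which covers counting error only. Alternatives used DESeq2 1.42.0 and limma 3.58.1 with statmod 1.5.0, whose consensus correlation within a mouse was 0.76. Labels say nothing of batches, and tumors of a WT mouse are not independent, so p-values over tumors are too small there. Exon lengths come from GENCODE vM21 (24974 of 25054 identifiers matched), promoters from RefSeq (GRCm38.p6). Python 3.11.15 with pandas 2.3.3 and matplotlib 3.10.9 made the figures. Scripts were tested on simulated data.

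The 10 genes, the lists and the tests were chosen with earlier results of these data known. The rule for named genes took the 10 members, pathway genes past the threshold, the pathway gene with the most CPM in each role, at most 3 genes of each cell type list, the genes with floxed alleles, and the 3 genes ordered most like *Igfbp3* and *Igf1*. *Stc1*, *Pappa*, *Htra1*, *Pik3r2*, *Igfbp1*, *Igfals*, *Insrr*, *Igfbpl1* and *Rictor* fall outside it and were chosen after their values were seen. Further lists were cartilage, adipocyte and erythroid genes. Of these, 6, 4 and 3 were tested. In edgeR before adjustment 1, 0 and 0 of them had p-values below 0.05, against 23.0% of all genes tested. After adjustment 0 were past the threshold. Of 10 tested skeletal muscle genes 0 were past it in edgeR (1 at an unadjusted p-value under 0.05), of 2 salivary gland genes 1 was higher in KO, of 2 lung genes 0 were past it at either level, and no liver gene was tested.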

Additional observations from a re-analysis of the deposited data

Results flagged for a closer look

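Of 34 sets of 8 values examined (17 genes in each genotype, as log2 CPM), 9 held a tumor that stood apart from the other 7 by Dixon's criterion (critical value 0.526). The nominal share is about 5% of sets, which takes the values as independent, while the WT tumors came from 4 mice. The share flagged over all genes tested was not computed, so the 9 cannot be called particular to the axis. The KO tumor Massa, the shallowest library, with lung RNA, accounted for 4 of the 9. It was lowest for *Insr* with 62.5 CPM, for *Irs1* with 24.5 CPM and for *Stc1* with 0 CPM, and highest for *Igfbp7* with 377 CPM. The 0 counts of *Stc1* allow up to 6.69 CPM, above the highest KO value of 5.28 CPM in Medusa, so Massa cannot be shown to be low for that gene. *Irs1* was also lowest in the WT tumor labeled lung, with 54.4 CPM. Within mouse N42 the left limb tumor was lowest for *Igfbp5* with 78.7 CPM, and the right femur tumor was lowest for *Igfbp6* with 0.738 CPM. The N215 tumor was highest for *Igf2* with 2997 CPM, on 26423 counts. Zelda was the lowest KO tumor for *Pik3r2* with 15.3 CPM. The cause was not tested for any of these values.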

How the results depend on the processing

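No paired analysis was possible between genotypes because they share no mice. Genes past the threshold numbered 618 as reported. They numbered 2517 with DESeq2 (61.9% higher in KO, against 46.4% as reported), 17 with limma and the mouse as a random effect, 10 with counts summed per mouse, 8 without N42, 6 with 1 tumor per WT mouse, 1518 without N215 and N25, 372 without Montana and Oregon, and 1111 without Massa and the N25 tumor (the last and the single-tumor choice made after seeing the data). Leaving out 1 tumor gave 252 to 1348. Of the 10 genes, 2 were past it with DESeq2 and without the N25 tumor, 3 without Massa and the N25 tumor, and 0 with limma, per mouse, without N42, with 1 tumor per WT mouse and with KO as Medusa and Ohio alone, and 0 to 2 without 1 tumor. Of the pathway list the counts were 9 with DESeq2, 6 without the N25 tumor or without it and Massa, 7 without N215 and N25, 4 without Montana and Oregon, 1 with Medusa and Ohio alone, 0 with limma, per mouse, without N42 and with 1 tumor per WT mouse, and 0 to 6 without 1 tumor. The count for WT sites went from 0 to 31 with DESeq2, and the mouse as a replicate block, in which N42 alone informs the site, kept it at 0.

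Direction turned as follows on the log2 scale. *Insr* was at 0.0043 with DESeq2, 0.0381 per mouse, 0.0664 without Massa and Grilka, 0.0698 without Massa and the N25 tumor, 0.0964 with 1 tumor per WT mouse, and −0.17 to 0.10 without 1 tumor. *Igfbp2* was at 0.80 with DESeq2, 0.67 without the N25 tumor, 1.93 without N215 and N25, 0.0753 without Montana and Oregon, 0.0267 without Massa and the N25 tumor, and −1.32 to 0.67 without 1 tumor. *Igfbp6* was at 0.0777 with DESeq2, 0.0118 with median-of-ratios size factors, 0.46 without the N25 tumor, 0.96 without N215 and N25, and −0.64 to 0.46 without 1 tumor. *Igf2* was at 1.61 with DESeq2, 1.82 without N215 and N25, and −4.49 to 1.76 without 1 tumor. The cause was not tested. *Igf1*, *Igf1r*, *Irs1*, *Igfbp3*, *Igfbp4*, *Igfbp5* and *Igfbp7* stayed below 0 in all 28 alternatives, over which the adjusted p of *Igfbp4* ran from 0.0281 to 0.627, that of *Igf1r* from 0.0615 to 0.715 and that of *Pappa2* from 0.000334 to 0.631. The depth of Massa and Grilka limits what can be said of genes under a few CPM in KO.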

Other observations

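Other genes of the pathway list had high values in single tumors and were chosen after their values were seen. *Igfals*, which encodes the liver protein that joins IGF and its binding protein in blood, had 46.5 CPM in Prince on 560 counts, at most 5.10 CPM in the other KO tumors and at most 0.768 CPM in WT. Its medians were 1.42 CPM in KO and 0.264 CPM in WT, and 7 of 8 KO tumors lay above every WT tumor. The other, Massa, had 0 counts, which allows up to 6.69 CPM. In Grilka 3 counts equal 4.03 CPM, above the highest WT value. *Igfals* had 672 counts in all, so outside Prince this separation lies near the floor. It had too few counts to be tested with all tumors in edgeR, and was higher in KO with no filter (log2 fold change 4.68, edgeR adjusted p = 0.0251), with DESeq2 (4.77, adjusted p = 2.00e-05), without N215 and N25 (edgeR adjusted p = 0.0239) and without Massa and Grilka (0.0169). It was not past the threshold with counts summed per mouse (edgeR adjusted p = 0.356), without N42 (0.366), with 1 tumor per WT mouse (0.474) or with KO as Medusa and Ohio alone, where its log2 fold change was 1.52 (0.346). Prince is the tumor with salivary gland RNA, and its liver genes summed to 5.48 CPM. *Insrr*, the receptor related to that of insulin, had 6.58 CPM in Ohio on 69 counts and at most 0.387 CPM in WT. *Igfbpl1*, with 22 counts in all, was at 0 counts in all 8 KO and 4 WT tumors and reached 1.93 CPM in the N215 tumor, the tumor with 2997 CPM of *Igf2*. For Massa and Grilka 0 counts allow up to 6.69 and 4.03 CPM, above that value. *Rictor*, a subunit of the kinase complex that activates AKT, had 571 CPM in the left limb tumor of N42, while the other WT tumors had 129 to 177 CPM. The same tumor had the most *Irs1* of all, with 469 CPM, and the least *Igfbp5* of WT, with 78.7 CPM.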
